A study of Mus musculus with 9 samples.

Results

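Synaptic vesicle genes and synaptic scaffold genes were followed across the 3 groups of a mouse RNA-seq experiment on early gestational alcohol exposure. Members were chosen by gene symbol from 15 families, and the rule itself uses no measured value, although it was proposed with results of these data known. The rule took 77 genes at 78 of the 27095 deposited loci, since Rims1 is split over 2 loci and its locus of higher FPKM was used. By role, 52 genes fell in the vesicle class (synaptotagmins, syntaxins, Vamp genes, synapsins, complexins, Sv2 genes, Snap25, Snap91 and Syp), 8 in the active zone class (Rims and Unc13 genes), 6 in the adhesion class (neurexins and neuroligins) and 11 in the scaffold class (Dlg, Shank and Homer genes). A mean FPKM of at least 1 over the groups was reached by 63 members and by 15548 loci in all.

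All offspring were wild type C57BL/6 fetuses (C57BL/6J in the methods) collected on gestational day 17 (GD17). Control offspring came from dams injected with lactated Ringer's solution. EtOH-exposed offspring came from dams given an intraperitoneal injection of EtOH early in gestation, and the methods sorted them by ocular and cortical patterning defects into unaffected and affected offspring. Each group had 3 fetuses. The affected offspring were therefore chosen for their defects within the exposed litters, and litter and sex of the sequenced fetuses are not given in the sources used here. The labels name the tissue as fetal brain, whereas the methods describe dissected cortex. The neuron markers were high throughout: all 10 passed the filter, and they summed to 4061 FPKM in control, 4024 in unaffected and 3862 in affected fetuses.

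FPKM is a read level corrected for exon length and for library size. The deposited table holds 1 FPKM value per group, made over its 3 animals, so no error between animals was computed and no test was run here. The authors' own tests, which that table also holds, were not used. Differences are stated as log2((FPKM + 0.1)/(FPKM + 0.1)), called the log2 difference below, and a member was counted as past the fold when its log2 difference was at least 0.322 in either direction. The share of all loci past the fold is given beside the counts of members past it. Counts of members that were merely higher or lower can be set beside these shares of all loci that passed the filter. In affected offspring 52.9% of these loci were higher than in control and 51.2% higher than in unaffected offspring. In unaffected offspring 51.6% were higher than in control. The 3 comparisons share groups, so they are not independent of each other. In bulk tissue, fewer cells of a type and less RNA per cell cannot be told apart.

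A synaptic vesicle fuses when Vamp2 on the vesicle zips together with Stx1a and Snap25 on the plasma membrane, with Syt1 as the calcium sensor and complexins as clamps and helpers. Rims and Unc13 proteins dock and prime vesicles at the active zone, neurexins and neuroligins join the membranes across the cleft, and Dlg, Shank and Homer proteins hold receptors in the postsynaptic density. Many other syntaxins and Vamp proteins carry out the same fusion step at the Golgi, endosome or endoplasmic reticulum of every cell. At GD17 the mouse cortex still produces neurons, and most of its synapses form after birth.

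The promoter sequence of the members at the extremes of the comparison of affected with unaffected offspring shows what kind of start site each has. They are the pair with the highest and the pair with the lowest log2 difference among members past the fold whose mean FPKM was 5 or more, where the RefSeq gene start lay near the edge of the deposited locus. Each run holds the 250 bases before the gene start of RefSeq on GRCm38.p6, written 5′ to 3′ on the strand of the gene, and capitals mark the motif matches listed after the sequences.
Unc13a, chr8:71671758-71672007, minus strand: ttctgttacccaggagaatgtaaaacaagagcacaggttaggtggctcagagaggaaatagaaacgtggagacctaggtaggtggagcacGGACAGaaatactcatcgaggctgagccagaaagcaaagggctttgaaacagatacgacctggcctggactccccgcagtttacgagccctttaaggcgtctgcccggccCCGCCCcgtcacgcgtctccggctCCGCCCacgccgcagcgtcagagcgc
Syn1, chrX:20920919-20921168, minus strand: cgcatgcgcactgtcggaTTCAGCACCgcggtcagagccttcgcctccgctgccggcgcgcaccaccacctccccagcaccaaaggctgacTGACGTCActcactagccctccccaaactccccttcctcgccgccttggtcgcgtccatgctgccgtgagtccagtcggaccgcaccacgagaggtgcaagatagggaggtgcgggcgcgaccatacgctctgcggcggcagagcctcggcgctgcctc
Vamp8, chr6:72390668-72390917, minus strand: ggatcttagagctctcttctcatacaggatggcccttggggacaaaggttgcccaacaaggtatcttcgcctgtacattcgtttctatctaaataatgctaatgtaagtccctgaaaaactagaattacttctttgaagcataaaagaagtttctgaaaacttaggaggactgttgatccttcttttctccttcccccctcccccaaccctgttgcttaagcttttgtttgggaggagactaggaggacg
Vamp4, chr1:162570265-162570514, plus strand: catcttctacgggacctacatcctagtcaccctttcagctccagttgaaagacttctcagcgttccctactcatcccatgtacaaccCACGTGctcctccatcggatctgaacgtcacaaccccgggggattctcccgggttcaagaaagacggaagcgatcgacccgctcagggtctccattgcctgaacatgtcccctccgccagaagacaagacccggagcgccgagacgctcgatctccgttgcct

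In these runs, counted back from the gene start, the Syn1 promoter held TTCAGCACC, the left arm of the RE1 element bound by the neuronal gene repressor REST, from position -232 to -224, and TGACGTCA, the cAMP response element, from -159 to -152. The Unc13a promoter held GGACAG from -160 to -155. This is only a short piece of the right arm of RE1, and it is present in 22.2% of all windows. The same promoter held the GC box GGGCGG on the opposite strand from -50 to -45 and from -26 to -21. The Vamp4 promoter held CACGTG, an E-box, from -163 to -158. No searched motif lay in the Vamp8 promoter, which also had 3 CpG dinucleotides against 27 for Syn1, 18 for Unc13a and 18 for Vamp4. A match to these letters is a description of the sequence and does not show a bound site.

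In all, 9 motifs were searched on both strands of every RefSeq promoter window of 300 bases, which ran from 250 before to 50 after the gene start. The windows covered 56 of the 77 members with 84 starts. TTCAGCACC was in 0.371% of all 32851 windows and in 3 member windows, those of Nlgn1, Syn1 and Unc13a, and the Unc13a match lay after the gene start. GGGCGG was in 35.7% of all windows and in 50 of the 84 member windows, and the median CpG count was 7 in all windows and 16 in those of members. CACGTG was in 7.15% of all windows and 10 member windows, GGACAG in 22.2% and 19, CCAAT in 37.4% and 24, and TATAAA in 13.6% and 7. TGACGTCA was in 1.79% of all windows and 1 member window (Syn1). TGACGCA, a variant of that element, was in 2.12% and 2 member windows (Stx4a and Stx6), and the palindromic NRF1 motif in 0.971% and 1 member window (Stx12). Overlapping windows of genes with several starts were counted each.

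Compared with unaffected offspring, affected offspring had higher levels past the fold of 4 of 6 adhesion, 3 of 6 active zone and 5 of 11 scaffold genes and of 7 of 40 vesicle genes, among them Syn1, Syn3, Snap91 and Sv2a, and lower levels past the fold of 5 vesicle genes, all of general membrane traffic (Vamp3, Vamp4, Vamp5, Vamp8 and Stx18). Of 63 members, 19 were higher past the fold (30.2%), against 20.3% of all loci, and 5 were lower (7.94%), against 18.1% of all loci. The higher share was near that of all loci under 2 other settings: at a fold of 1.5 it was 5 of 63 against 6.88%, and with the trend by genomic span removed 11 of 63 against 17.5%. The lower count was 0 at a fold of 1.5, against 4.91% of all loci. It was also 0 with the trend by coding length removed, against 8.04%. The median log2 difference was 0.16 over the members and 0.01 over all loci. Against control, 5 members were higher past the fold (7.94%; Dlg5, Shank2, Syn1, Syn3 and Unc13a), against 12.1% of all loci, and 2 were lower (3.17%; Syt13 and Vamp8), against 11.3%. Both shares against control lay below those of all loci, so in that comparison the counts past the fold are not a result about the members. The median log2 difference against control was 0.11 over the members and 0.02 over all loci.

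Levels of members past the fold in either comparison with affected offspring are plotted by group.

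**Figure D1:**
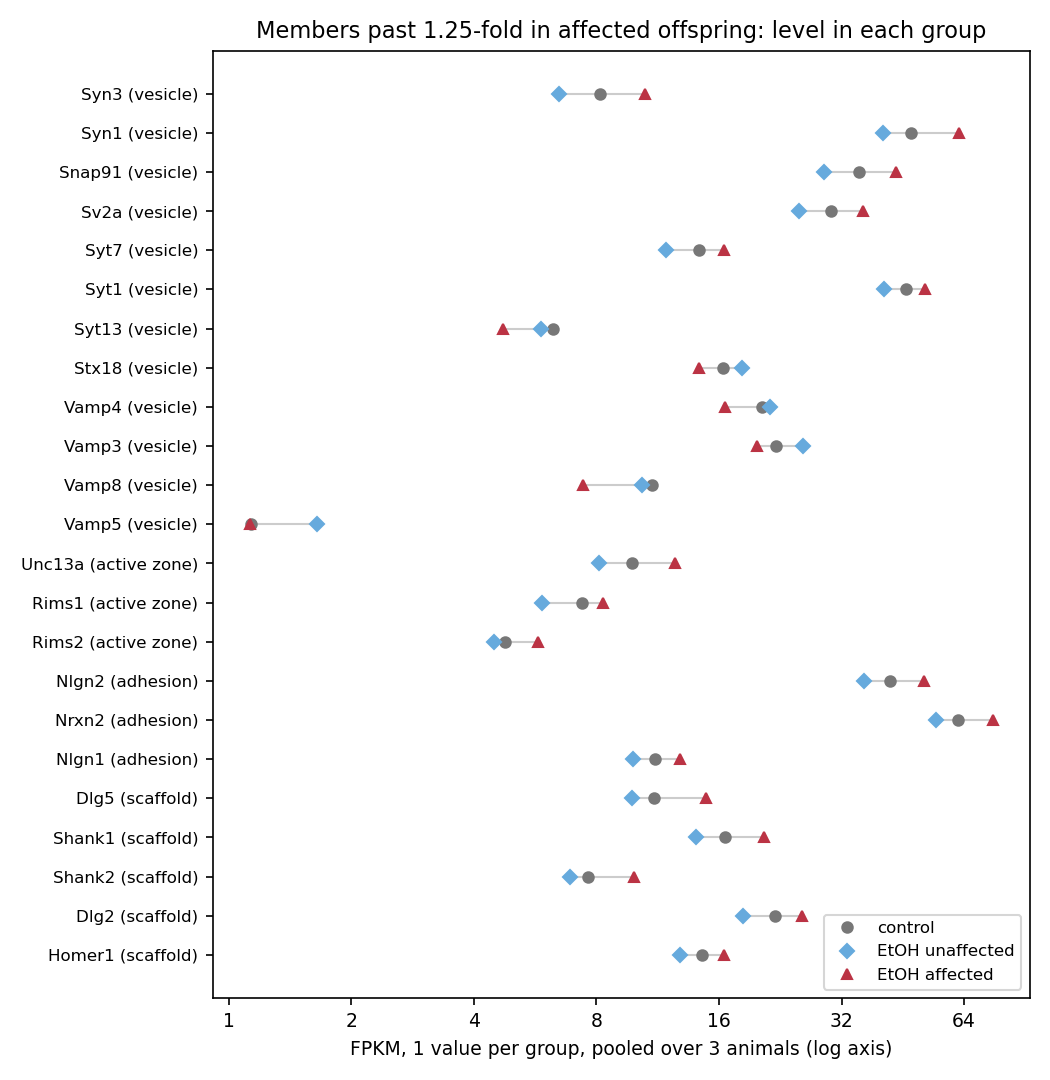
FPKM (log axis) of members past the fold in affected against control or affected against unaffected offspring, with 1 value per group pooled over 3 animals and no error drawn. Grey circles are control, blue diamonds EtOH unaffected and red triangles EtOH affected. In every plotted member that was higher than in unaffected offspring, the unaffected value is the lowest and the affected value the highest, whereas Syt13, Stx18 and the Vamp genes have their lowest value in affected offspring. The distance between affected and unaffected follows from the choice of these members, so only the place of control is a description.

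The synapsins coat vesicles and hold them in a reserve pool. Syn1 (minus strand of chrX:20797828-20920937, a deposited span it shares with Araf and Timp1) had 47.4 FPKM in control, 40.5 in unaffected and 62.0 in affected fetuses. Its log2 difference was 0.39 for affected against control and 0.61 for affected against unaffected. Syn3 (minus strand of chr10:86021929-86498896, a span shared with Timp3 and Fbxo7) stood lower, with 8.16 FPKM in control, 6.46 in unaffected and 10.5 in affected fetuses, and its log2 difference against unaffected, 0.70, was the highest of any member that passed the filter. Syn2 differed little, from 19.7 FPKM in control and 18.4 in unaffected to 20.1 in affected fetuses. The 3 paralogs thus shared the order of the groups while Syn2 stayed inside the fold.

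Among other proteins of the vesicle membrane and its recycling, Snap91, a clathrin assembly protein that rebuilds vesicles after fusion, had 35.3 FPKM in control, 29.0 in unaffected and 43.6 in affected fetuses. Sv2a, a vesicle glycoprotein and the binding site of the antiepileptic drug levetiracetam, had 30.1, 25.1 and 36.1 FPKM in the same order. These differences from unaffected were 0.59 for Snap91 and 0.52 for Sv2a on the log2 scale. The second Sv2 gene, Sv2b, was highest in control, with an FPKM of 8.48 there, 7.16 in unaffected and 8.03 in affected offspring. Syp, the abundant vesicle protein synaptophysin, differed between affected and unaffected offspring by a log2 difference of 0.00, with 109 FPKM in control, 101 in unaffected and 101 in affected.

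The neuronal fusion proteins were among the highest members. Vamp2, the vesicle SNARE, had the highest mean level of all members, with 173 FPKM in control, 160 in unaffected and 181 in affected fetuses, a log2 difference of 0.17 against unaffected. Snap25, its partner on the plasma membrane, was lowest in affected offspring, with 83.6, 82.2 and 77.7 FPKM in the same order of groups. Stx1a, a plasma membrane syntaxin, was nearly level, with 42.1, 41.4 and 41.6 FPKM. These core fusion proteins did not all share the same order of groups.

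Complexins, which bind the assembled SNAREs, came close to the fold. Cplx2 had 59.4 FPKM in control, 56.2 in unaffected and 70.0 in affected fetuses, and its log2 difference against unaffected, 0.317, lay just under the fold. Cplx1 had 49.4, 44.9 and 54.5 FPKM in the same order, a log2 difference of 0.28 against unaffected. Cplx3 and Cplx4 were below the filter.

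Synaptotagmins sense calcium or regulate fusion, and 12 of the 17 passed the filter. Syt1, the fast sensor of release, had 46.0 FPKM in control, 40.6 in unaffected and 51.4 in affected fetuses, a log2 difference of 0.34 against unaffected. Syt7, a sensor of slower release, had 14.3, 11.9 and 16.4 FPKM in the same order, a log2 difference of 0.46. The synaptotagmins of highest mean level differed less: Syt4 had 109 FPKM in control, 98.4 in unaffected and 102 in affected fetuses. Syt5 had 73.0, 78.6 and 69.8 FPKM, so its order was the reverse of that of Syt1. Syt13, a synaptotagmin that does not bind calcium, was lowest in affected offspring, with 6.24 FPKM in control, 5.83 in unaffected and 4.73 in affected, a log2 difference of -0.39 against control and -0.30 against unaffected. Over the 25 members of the vesicle class outside general traffic that passed the filter, 20 were higher in affected than in unaffected offspring, with a median log2 difference of 0.16.

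The syntaxins from Stx2 to Stx18 and the Vamp genes from Vamp3 to Vamp8 serve the Golgi, endosome, lysosome or other membranes, and 15 of these 17 genes passed the filter. In affected offspring 13 of the 15 were lower than in control and 13 were lower than in unaffected offspring, with median log2 differences of -0.15 and -0.27. Their median coding length was 825 nt, and all loci with a coding length under 1000 nt had medians of -0.16 and -0.25. The traffic medians were thus near those of short genes in general. Past the fold against unaffected were 5 of the 15, all lower, beside 18.1% of all loci. Vamp8 (chr6:72385221-72390667, minus strand), a SNARE of endosomes and of regulated secretion, had 10.9 FPKM in control, 10.4 in unaffected and 7.39 in affected fetuses. Its log2 difference was -0.56 against control, the lowest of the members that passed the filter, and -0.48 against unaffected.

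Vamp4, a SNARE of the trans-Golgi network, had 20.4 FPKM in control, 21.3 in unaffected and 16.6 in affected fetuses, a log2 difference of -0.36 against unaffected. Vamp3, of recycling endosomes, had 22.0, 25.7 and 19.9 FPKM in the same order, a log2 difference of -0.37. Stx18, of the endoplasmic reticulum, had 16.3, 18.2 and 14.3 FPKM, a log2 difference of -0.35. For all 3 the control value lay between those of the exposed groups. With the coding length trend removed, the differences against unaffected became 0.0077 for Vamp4 and 0.046 for Vamp3, and -0.21 for Stx18. Vamp5, at 1.14 FPKM in control, 1.64 in unaffected and 1.13 in affected fetuses, was near the filter and stood apart only in unaffected offspring. The endosomal syntaxins Stx7 and Stx12 had the highest levels of the group. Stx7 had 98.7 FPKM in control, 101 in unaffected and 86.2 in affected fetuses, a log2 difference of -0.24 against unaffected, and Stx12 had 89.3, 85.8 and 84.8 FPKM.

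At the active zone, all 6 members that passed the filter were higher in affected offspring than in either other group, with median log2 differences of 0.22 against control and 0.32 against unaffected. Past the fold were 3 of the 6 against unaffected, beside 20.3% of all loci, and 1 against control, beside 12.1%. Unc13a (chr8:71625118-71671757, minus strand), the main priming factor of forebrain synapses, had 9.77 FPKM in control, 8.10 in unaffected and 12.5 in affected fetuses. Its log2 difference was 0.35 against control and 0.62 against unaffected. Unc13b, its paralog, had 5.67, 5.55 and 6.84 FPKM and stayed inside the fold in both comparisons. Among the Rims genes, whose products tether calcium channels and vesicles, Rims1 had 7.37 FPKM in control, 5.89 in unaffected and 8.29 in affected fetuses at the locus used. At its other locus the values were 5.26, 4.49 and 6.48 FPKM, with a log2 difference against unaffected of 0.52 beside 0.49 at the locus used. Both parts of Rims1 therefore gave the same order of groups. Rims2 had 4.76, 4.49 and 5.74 FPKM, and the short forms Rims3 (9.70, 10.5 and 10.7 FPKM) and Rims4 (8.23, 7.58 and 9.21 FPKM) stayed inside the fold.

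All 6 neurexins and neuroligins had their lowest value in unaffected and their highest in affected offspring, with median log2 differences of 0.19 against control and 0.42 against unaffected. Past the fold against unaffected were 4 of the 6, all higher, beside 20.3% of all loci, and 0 against control, beside 12.1%. With the coding length trend removed, the adhesion medians were 0.015 against control and 0.10 against unaffected. With the transcript length trend removed they were -0.0090 and 0.075. Nrxn2 (chr19:6418738-6533448, plus strand), a presynaptic adhesion receptor, had 62.0 FPKM in control, 54.7 in unaffected and 75.2 in affected fetuses, a log2 difference of 0.46 against unaffected. Nrxn3 was flatter, with 7.86, 7.70 and 8.35 FPKM.

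The neuroligins are the postsynaptic partners. Nlgn2 (chr11:69822986-69837942, minus strand), which is found at inhibitory synapses, had 42.1 FPKM in control, 36.3 in unaffected and 51.0 in affected fetuses, a log2 difference of 0.49 against unaffected. Nlgn1, of excitatory synapses, had 11.1, 9.84 and 12.8 FPKM, a log2 difference of 0.38 against unaffected that became -0.044 with the transcript length trend removed. Nlgn3 had 15.7, 14.7 and 17.9 FPKM and stayed inside the fold. The partners on the presynaptic and postsynaptic side of this contact thus had the same order of groups.

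Of the 11 scaffold genes, 10 were higher in affected offspring than in control and 10 than in unaffected, with median log2 differences of 0.18 and 0.29. Past the fold against unaffected were 5 of the 11, all higher, beside 20.3% of all loci higher and 18.1% lower, and against control 2 of the 11 were higher, beside 12.1%. The Shank proteins link the upper receptor scaffold to the actin skeleton. Shank1 (chr7:44310191-44358653, plus strand) had 16.6 FPKM in control, 14.0 in unaffected and 20.6 in affected fetuses, a log2 difference of 0.55 against unaffected. Shank2 (plus strand of chr7:143948405-144470935, a span shared with Cttn) had 7.64, 6.89 and 9.87 FPKM, log2 differences of 0.37 against control and 0.51 against unaffected. Shank3 had 5.11, 4.92 and 6.04 FPKM, inside the fold. All 3 Shank genes had the same order of groups.

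Dlg genes code for scaffolds that bind glutamate receptors and other membrane proteins. Dlg4, which encodes the best known scaffold of the postsynaptic density, had the highest level of the class, with 109 FPKM in control, 106 in unaffected and 121 in affected fetuses, a log2 difference of 0.18 against unaffected. Dlg3, prominent at young synapses, had 21.8, 20.4 and 24.2 FPKM. Dlg2 had 22.0, 18.4 and 25.5 FPKM and was past the fold against unaffected with a log2 difference of 0.47. The member of the class with the highest log2 difference was Dlg5 (chr14:24133892-24245920, minus strand), known for cell polarity as well as synapses, with 11.1, 9.81 and 14.8 FPKM, a log2 difference of 0.42 against control and 0.59 against unaffected. Homer1, which ties metabotropic glutamate receptors to Shank, had 14.5 FPKM in control, 12.8 in unaffected and 16.5 in affected fetuses, a log2 difference of 0.36 against unaffected. Homer3 was the exception of the class, with 12.6, 13.6 and 12.4 FPKM. Its span is shared with Ddx49, which had the same order of groups at 25.5, 28.0 and 24.3 FPKM.

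Set against each other, the vesicle class had a lower median log2 difference than the scaffold class in both comparisons with affected offspring. The vesicle medians were -0.02 against control and 0.03 against unaffected, which put the vesicle class below the scaffold class by 0.21 and 0.26. Much of this gap lay in the general traffic members. Without them, and without Dlg5, the vesicle medians were 0.11 and 0.16, the scaffold medians 0.17 and 0.27, and the vesicle class stood at -0.06 and -0.10 relative to the scaffold class. In summed level, the vesicle class had 1477 FPKM in control, 1407 in unaffected and 1497 in affected fetuses, and the scaffold class 232, 220 and 264. The summed adhesion genes had 167, 146 and 197 FPKM and the active zone genes 46.5, 43.1 and 54.2.

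**Figure D2:**
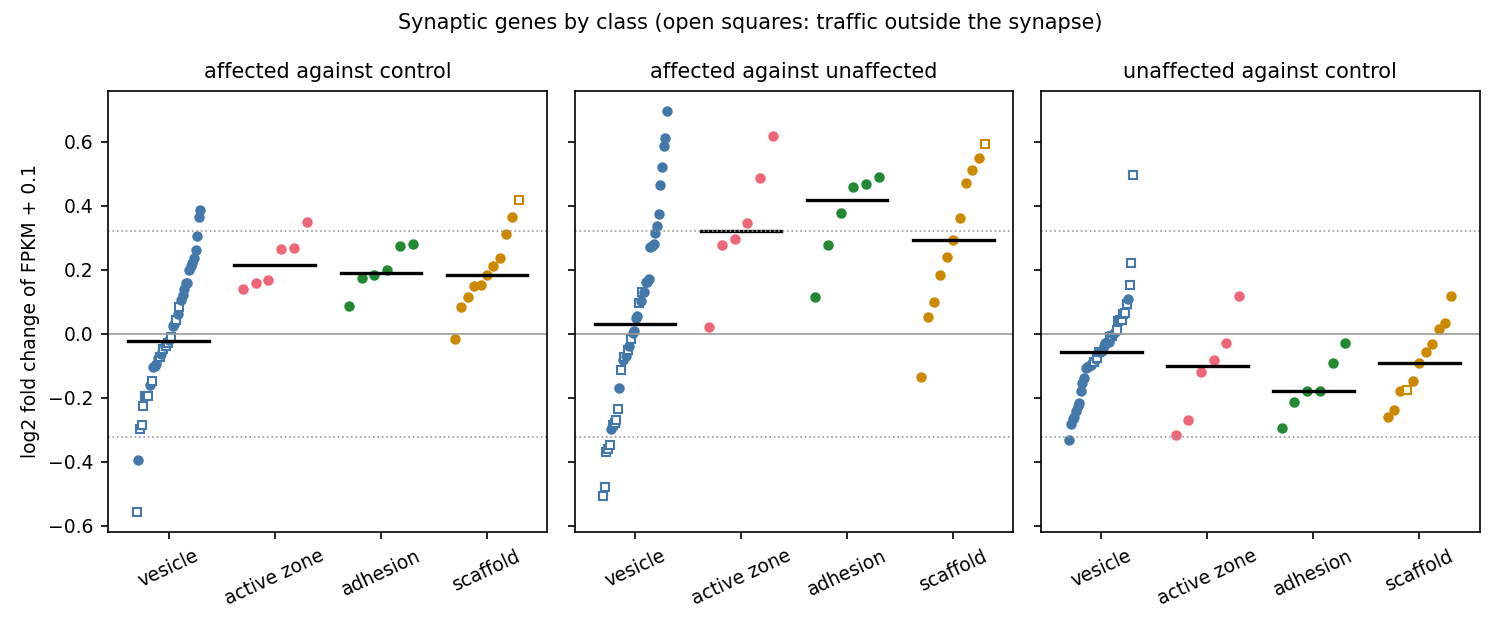
log2 difference of FPKM + 0.1 for each member that passed the filter, by class and comparison, with 1 point per gene, a black bar at the class median and dotted lines at the fold used for counting; open squares are members of general membrane traffic and Dlg5. In affected against unaffected offspring the vesicle class spreads from -0.51 to 0.70 with most open squares below 0, while every active zone and adhesion gene lies above 0.

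Unaffected offspring differed less from control. Of the 63 members, 1 was higher past the fold, Vamp5 with a log2 difference of 0.50, against 5.45% of all loci, and 1 was lower, Syn3 with -0.33, against 6.8% of all loci. Below control stood 46 of the 63, with a median log2 difference of -0.08, where all loci had 0.01 and 51.6% of them stood above control. The FPKM was lowest in unaffected and highest in affected offspring for 36 of the 63 members, beside 32.2% of all loci. The opposite order, highest in unaffected and lowest in affected, held for 13 members, 10 of them in general traffic, beside 30.9% of all loci.

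The shares past the fold are drawn for each class beside those of all loci.

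**Figure D3:**
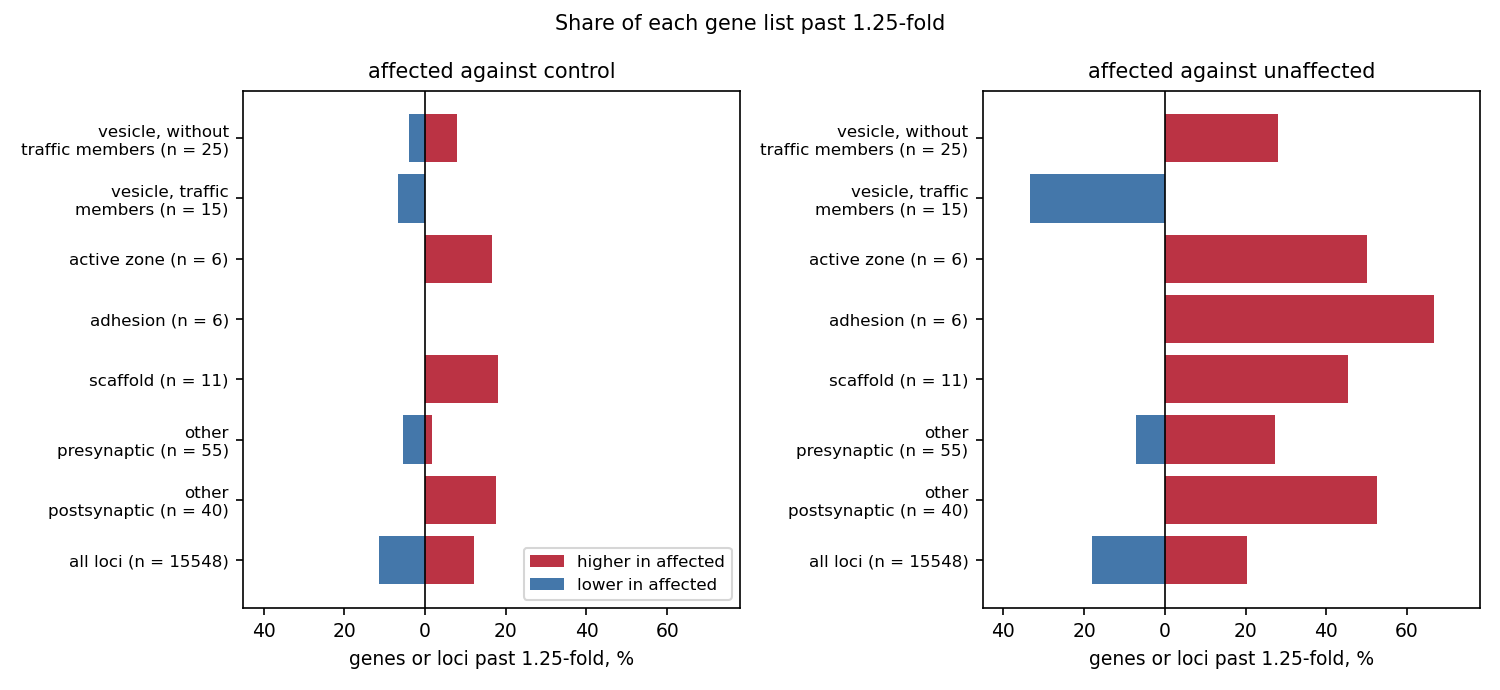
Percent of the genes in each list past the fold, higher (red, right) or lower (blue, left) in affected offspring, against control and against unaffected offspring; n is the number of genes or loci with a mean FPKM of at least 1. Against unaffected, 4 of the 6 adhesion genes and 21 of 40 other postsynaptic genes are higher and 0 lower, while the general traffic members have 5 of 15 lower and 0 higher.

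The log2 difference moved with coding length, both in the members and across all loci with a coding length in GENCODE. In affected against unaffected offspring the 3699 loci with a coding length under 1000 nt had a median of -0.25, and the 485 loci of at least 5000 nt had a median of 0.50. The 22 members under 1000 nt had a median of -0.03 and the 7 members of at least 5000 nt a median of 0.51. Between these ends, the 13 members from 2000 to 3000 nt had a median of 0.38, where all loci of that length had 0.16. Spearman's rho of the log2 difference with coding length was 0.67 across 63 members and 0.63 across 11829 loci, which share the same libraries and are not independent points. For affected against control rho was 0.66 in the members and 0.59 across loci, and for unaffected against control it had the opposite sign, -0.49 and -0.47. The classes differ in this length: the median was 994.5 nt for vesicle, 2784 nt for scaffold, 3541.5 nt for adhesion and 4497 nt for active zone genes. Why length and level moved together was not tested.

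**Figure D4:**
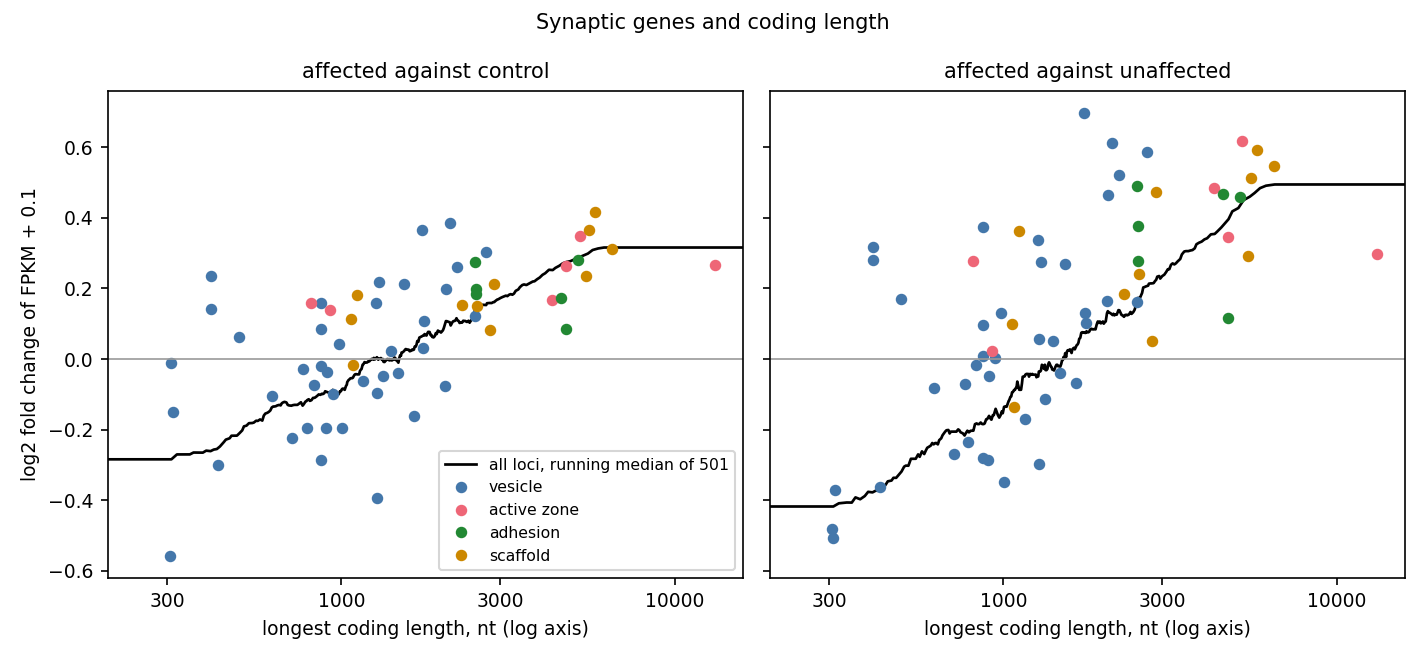
log2 difference of FPKM + 0.1 against the longest coding length of the gene (log axis, nt) for the 63 members, coloured by class, with the running median over neighbouring loci of all genes as a black line. The line runs from below 0 for short genes to above 0 for long ones, and Shank1, Nrxn2 and Dlg5 lie near it, Nrxn3 and Unc13b below it, while Cplx1, Cplx2, Syn1 and Syn3 lie above it in affected against unaffected offspring.

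With the running median of loci of like coding length taken off, the gap between vesicle and scaffold genes was no longer there: their medians in affected against unaffected offspring were 0.109 and 0.063. With transcript length used in place of coding length, the vesicle class stayed below the scaffold class, at -0.076 against control and -0.081 against unaffected. With coding length removed, the adhesion and active zone medians were 0.10 and 0.16 against unaffected and 0.015 and 0.024 against control, and with transcript length removed the adhesion median against control was -0.0090. Long genes lay on both sides of loci of their length, with remainders against unaffected of 0.05 for Shank1, 0.11 for Dlg5 and 0.18 for Unc13a but -0.17 for Shank3, -0.20 for Unc13b and -0.28 for Nrxn3. Some vesicle genes of short or middle length had a larger remainder, chosen here after their values were seen. It was 0.69 for Cplx2, 0.66 for Cplx1, 0.62 for Syn3, 0.49 for Vamp2 and 0.48 for Syn1. These remainders rest on coding length, which is 405 nt for both Cplx2 and Cplx1, in transcripts of 4928 and 2189 nt. Their remainders by transcript length are not given here. Other short vesicle genes did not, such as Stx18 at -0.21 and Vamp8 at -0.06. Above loci of their coding length stood 44 of the 63 members, and 13 of the 63 were higher past the fold beside 9.69% of 11829 loci, with 0 lower beside 8.04%. With the transcript length trend removed instead, 9 of the 63 were higher, beside 8.59% of loci. Among the 13 were Cplx2, Cplx1, Syn3, Vamp2, Syn1, Rims4, Homer1, Syt1, Sv2a, Snap91, Nlgn2 and Syt7. Syt13 lay at -0.26, and Vamp3 and Vamp4 were at 0.05 and 0.01, so neither was below loci of its length.

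Partner genes outside the families of the rule were described in the same way. Of 58 other presynaptic genes 55 passed the filter, with median log2 differences of 0.05 against control and 0.14 against unaffected. Past the fold against unaffected were 15 higher (27.3%) and 4 lower (7.27%), beside 20.3% and 18.1% of all loci. The higher ones include the active zone scaffolds Bsn and Pclo and the dynamins Dnm1 and Dnm3 of vesicle retrieval, and the lower ones include Clta, Snap23 and Synpr. Against control only Erc1 was higher, and Snap23 and Synpr were among the 3 lower ones, beside 12.1% and 11.3% of all loci. Of 43 other postsynaptic genes 40 passed the filter, with medians of 0.20 against control and 0.35 against unaffected. Past the fold were 7 against control (17.5%, beside 12.1% of all loci) and 21 against unaffected (52.5%, beside 20.3%), all higher, among them Dlgap1, Dlgap2 and Dlgap3, which join Dlg4 to Shank proteins. The median coding length was 1578 nt for the presynaptic and 2938.5 nt for the postsynaptic list.

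Markers of other cells that the dissection could hold differed between groups as well. The 8 radial glia markers summed to 2460 FPKM in control, 2617 in unaffected and 1855 in affected fetuses, with Fabp7 and Slc1a3 lower and Nes higher past the fold in both comparisons. This sum is carried by its abundant genes, since 5 of the 8 were higher than in control, with a median log2 difference of 0.16, and 3 of the 8 higher than in unaffected offspring, with a median of -0.07. The 4 intermediate progenitor markers summed to 114, 120 and 144 FPKM, and the 4 erythroid markers analysed to 492, 635 and 397 FPKM. Choroid plexus markers summed to 985, 1308 and 1096 FPKM, GABAergic neuron markers to 163, 188 and 176, meningeal markers to 68.2, 62.6 and 59.4, and endothelial markers to 57.2, 57.4 and 59.3. The endothelial sum hides a median log2 difference of 0.27 against control and 0.37 against unaffected, with Cdh5, Flt1 and Tek higher past the fold against unaffected. The choroid plexus sum is carried by its most abundant gene, since 3 of the 4 passed the filter, with a median level of 10.6 FPKM. Of these 3, Clic6 was higher past the fold in both comparisons, while 2 were lower than in unaffected offspring. Oligodendrocyte precursor markers lay between 34.2 and 37.1 FPKM in sum, astrocyte markers between 25.5 and 27.3 and microglial markers between 15.9 and 16.1. These sums hide single markers past the fold in both directions. Against control, Cspg4 was higher and Sox10, Gfap and Aif1 were lower. Against unaffected, Cspg4, Pdgfra, Aqp4 and Csf1r were higher and Gfap and Aif1 lower. No marker analysed was at 0 in every group. The neuron markers had a median log2 difference of 0.14 against unaffected, with Dcx, Elavl3, Nefm and Rbfox3 higher and Stmn2 lower past the fold, beside 0.16 for the synaptic members. The part of cell composition in the differences of the synaptic genes was not tested.

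The 14 members with a mean FPKM below 1 were Syt2, Syt8, Syt10, Syt12, Syt15, Stx11, Stx19, Vamp1, Vamp7, Cplx3, Cplx4, Sv2c, Unc13c and Unc13d. Several are known from adult hindbrain, retina or cells outside the brain, such as Syt2 and Vamp1, the fast release pair of hindbrain and spinal cord, and Cplx3 and Cplx4 of the retina. Syt2 had 0.75 FPKM in control, 0.64 in unaffected and 0.74 in affected fetuses. Unc13c, the cerebellar paralog, and Sv2c came nearest to the filter, with a mean FPKM over the groups of 0.90 and 0.83. Vamp7 is listed at 0 in every group, at a locus on an unplaced piece of the X chromosome. No log2 difference is given for these genes.

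The deposited span of 9 members also covers another named gene with a mean FPKM of at least 1, and the sources used here do not state that reads were counted by strand. Syn1 shares its span with Araf, which differed in the opposite direction, with 57.1 FPKM in control, 59.1 in unaffected and a log2 difference of -0.56 for affected against unaffected, and with Timp1, at 1.81, 1.72 and 1.59 FPKM. Syn3 shares its span with Timp3, at 8.09, 7.43 and 8.55 FPKM, a log2 difference of 0.20 against unaffected beside 0.70 for Syn3, and with Fbxo7, at -0.14. Shank2 shares its span with Cttn, an actin regulator at 47.9, 46.9 and 56.2 FPKM, which is well above Shank2 itself, and with Mir3470b, at a log2 difference of -1.44 against unaffected. Homer3 shares its span with Ddx49, at a log2 difference of -0.20 against unaffected beside -0.13 for Homer3.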

How the data were processed

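RNA-seq values from 9 mouse fetuses in 3 groups of 3 were analysed, grouped by the sample labels. The authors deposited FPKM per locus with 1 value per group, made by Cufflinks and Cuffdiff on mm10 alignments. The submitters' processing notes name Bowtie2 2.2.4.0, and the methods name STAR as well as Bowtie and TopHat. The labels name Trizol for RNA extraction and the methods a column kit. Columns holding single animals numbered 0, and depth per library was not used here. The deposited table also holds the authors' fold changes, test statistics, p-values and q-values for each comparison, and these were not used.

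From the FPKM, log2 differences were computed with a pseudocount of 0.1 for loci with a mean FPKM of at least 1 in Python 3.11.15 with numpy 2.4.6 and scipy 1.17.1. Past the fold means at least 1.25-fold. No test was run, since a single pooled value carries no error. Members are named where past the fold against control or unaffected with a mean FPKM of at least 5, where among the 2 highest of their family, or where a small count or an excluded locus needed it. Members named for other reasons (paralogs, length remainders) were chosen after their values were seen. Coding lengths are the longest in GENCODE M21 and covered 63 of 63 members and 95.1% of loci with a single gene name. The running median over 501 loci was tested on simulated data. Promoter windows are from RefSeq on GRCm38.p6. Members, classes, lists and settings were chosen with earlier results of these data known. Alternatives were 2 other pseudocounts, 2 other filters, 2 other scalings, 3 length corrections, another fold, other rules for joined loci and for split loci, and 2 other sets of class limits. Some single genes under these rules are left out of the text and of the plot of levels, while the class counts and medians include them.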

Additional observations from a re-analysis of the deposited data

How the results depend on the processing

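No paired analysis was possible because the files hold 1 pooled value per group and none per animal, and for the same reason no replicate could be left out. Under the 14 alternatives, 265 class medians and counts stayed within 0.1 (log2) or 1.5 times of the reported value, 54 moved and 2 reversed, and of the values of single members 1297 stayed, 176 moved and 3 reversed. The counts of members past the fold were 5 higher and 2 lower against control, 19 and 5 against unaffected, and 1 and 1 for unaffected against control. A fold of 1.5 left 5 of 63 higher against unaffected, a share near the 6.88% of all loci, and 0 in all other counts. With no filter 4 were lower against control and 2 higher for unaffected against control, beside 12.2% and 7.52% of all loci. That last count was 0 with a mean FPKM of at least 5 and 0 with a pseudocount of 1, which also left 0 lower. Centring on all loci or upper quartile scaling made it 2 lower for unaffected against control, beside 7.05% and 6.98% of all loci.

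Length correction moved the active zone, adhesion and scaffold medians against unaffected by at least 0.1, and not the vesicle median. With the running median by protein length removed, medians against control and unaffected were 0.024 and 0.158 for the active zone, 0.015 and 0.0997 for adhesion, 0.048 and 0.063 for scaffold and 0.027 and 0.115 for the other postsynaptic genes. The vesicle class minus the scaffold class then stood at -0.0092 against control, reversed to 0.045 against unaffected, and was -0.086 for unaffected against control. Of 63 members 2 were higher and 1 lower against control, beside 4.02% and 4.57% of all loci, and 0 lower against unaffected, beside 8.04%, and against unaffected Vamp3 reversed to 0.046 and Vamp4 to 0.0077. With transcript length in its place, an alternative added after seeing the data, the medians were 0.012 and 0.11 for the active zone, -0.0090 (reversed) and 0.075 for adhesion, 0.062 and 0.126 for scaffold, and 0.073 and 0.150 for the other postsynaptic genes. Adhesion was then at -0.047 for unaffected against control, vesicle minus scaffold at -0.076 against control and -0.081 against unaffected, Nlgn1 reversed to -0.044 against unaffected, and 2 and 9 of the 63 members were higher, beside 3.39% and 8.59% of all loci. With the running median by genomic span removed, where a span can cover neighbouring genes, medians against unaffected were 0.16 for the active zone, 0.28 for adhesion, 0.18 for scaffold and 0.19 for the other postsynaptic genes (0.076 against control), with 0 higher and 6 lower against control, beside 9.66% and 11.9% of all loci, 11 of 63 higher against unaffected, no larger a share than the 17.5% of all loci, and 0 lower for unaffected against control.

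Leaving out the general traffic members, and Dlg5 from the scaffold class, moved the vesicle median to 0.11 against control and 0.16 against unaffected and vesicle minus scaffold to -0.061 and -0.10, with 1 lower against control, 0 lower against unaffected and 0 higher for unaffected against control, beside 11.3%, 18.1% and 5.45% of all loci. The cause of these shifts was not tested. Without values per animal, and with the authors' own tests left aside, no difference was set here against the spread between fetuses. Differences of members near an FPKM of 1 are the least certain.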

Other observations

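Several pairs of members lie within 1000000 bp of each other on 1 chromosome, and neighbours did not always differ alike. Shank1 and Syt3 lie 24234 bp apart on chromosome 7, and their log2 differences in affected against unaffected offspring were 0.55 and 0.10. Vamp5 and Vamp8 lie 4752 bp apart on chromosome 6, with -0.51 and -0.48 against unaffected, but against control Vamp5 was at -0.01 and Vamp8 at -0.56. Nlgn2 and Dlg4 lie 180444 bp apart on chromosome 11, with 0.49 and 0.18, and Dlg3 and Nlgn3 lie 480766 bp apart on the X chromosome, with 0.24 and 0.28. With 1 value per group, none of these differences was tested here, and the authors' own tests were not used.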
